A study of Cucumis sativus with 12 samples.

Results

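Wild-type cucumber stigma and style were sampled at anthesis, the stage at which the flower opens, and their messenger RNA was sequenced. The members are the libraries whose genotype label is wild type (WT), which are 3 of the 12 libraries of the series. The other libraries come from Csspt, Csalc and Csspt Csalc mutants and were not analysed here, so the text holds no comparison between genotypes. The label gives the tissue as stigma and style together, the source as stigma, and no treatment, and the design describes the libraries as biological replicates. The labels used here do not give the cultivar, the plants or flowers per library, or the hour of collection. A whole organ was extracted, so a low value can mean few cells of a type or little RNA per cell, and these cannot be told apart.

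The stigma is the surface that receives pollen, and the style carries the transmitting tract, the file of tissue that pollen tubes grow through on their way to the ovules. Cells of this tissue are known for secreting sugars, peptides, wall-loosening proteins and lipids into the space around them. In Arabidopsis, the transcription factors SPATULA, HECATE, NGATHA, the BEE group of bHLH factors and the zinc finger protein NO TRANSMITTING TRACT (WIP2) are needed to form the stigma, style and transmitting tract.

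The libraries were even in depth and in the number of genes they detected. Replicates 1, 2 and 3 held 36079970, 33573784 and 32244933 counts. A gene with no count in a library could still have been present at up to 0.0831 to 0.0930 CPM (counts scaled to the library total), the limit that 3 counts set, and this covers counting error only. Levels are given in FPKM, mapped fragments scaled to the length of the gene model and to the size of the library, which allows genes of different length to be set side by side. Of 24345 genes in the table, 15423 (63.4%) had a mean of at least 1 FPKM, the value used here for an expressed gene. Single libraries gave 15421, 15401 and 15366 such genes. A mean of at least 100 FPKM was reached by 1005 genes and a mean of at least 1000 FPKM by 38, whereas 3420 genes had no count in any library. Because there is 1 group, no test was run, and each statement below rests on the spread over 3 libraries.

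RNA was concentrated in a small part of the gene set. The most abundant gene of each library held 1.48% ± 0.362 (SD, n = 3) of summed FPKM, the top 10 held 6.48% ± 0.464, and the top 100 held 20.8% ± 0.367. The top 1000 genes held 51.8% ± 0.296. The same genes filled the top of each library: 24 genes were among the 30 most abundant in every library and 89 among the 100 most abundant in every library.

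**Figure D1:**
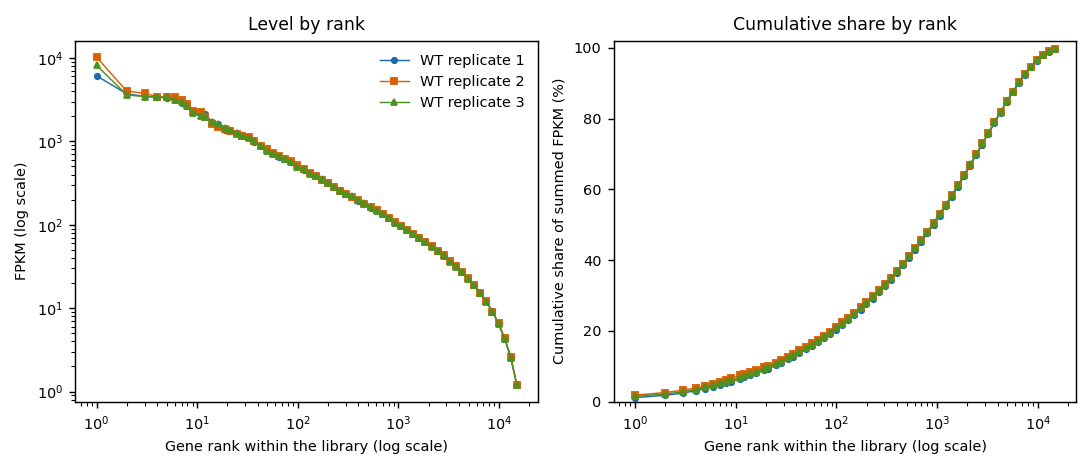
FPKM (left, log scale) and cumulative share of summed FPKM in percent (right) against gene rank within each library (log scale), with 1 curve per WT library. At rank 1 replicate 2 was highest and replicate 1 lowest, and the cumulative shares still differed at rank 11, at 6.44%, 7.38% and 6.77% in replicates 1, 2 and 3. At rank 924 they were 49.99%, 50.5% and 50.5%.

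The regulators that mark this tissue were expressed in part. Of 49 genes whose Swiss-Prot name puts them among carpel, style and transmitting tract regulators, 26 were expressed, and 13 of these had a mean of at least 10 FPKM. The other 23 were under 1 FPKM, and 12 of those had no count in any library. The share of expressed members, 53.1%, was below that of all genes, 63.4%. The summed level of the 49 genes was 983, 994 and 1008 FPKM in replicates 1, 2 and 3, so the libraries were close. Of the 49, the most abundant was BEE 3 (Csa1G024150), at 282.9, 311.4 and 312.2 FPKM. It is a bHLH factor of the group that in Arabidopsis acts in the transmitting tract. The list goes by Swiss-Prot name and so leaves out MADS2 (Csa4G126990), at a mean of 312.6 FPKM. The non-redundant name of MADS2 is developmental protein SEPALLATA 2-like. NGA1 (Csa5G146310), a B3 domain factor of the NGATHA group that shapes the Arabidopsis style, had 121, 143 and 130.9 FPKM.

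NGA3 (Csa4G047970), of the same group, had 68.6, 52.0 and 67.8 FPKM and was lowest in replicate 2. YABBY 2 (Csa6G426940), of a family that gives lateral organs their abaxial side, had 91.4, 88.5 and 81.1 FPKM. HEC3 (Csa6G483450), a HECATE bHLH factor, had 34, 45.2 and 48 FPKM and was lowest in replicate 1. SPATULA (Csa2G356640), the bHLH partner of the HECATE factors in Arabidopsis, had 21, 20.1 and 19.6 FPKM, which placed it at rank 5379 of all genes. Its 3 libraries were close, and each lay above the median of the expressed genes, 11.3 FPKM.

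WIP2 (Csa3G810580), a cucumber gene named after NO TRANSMITTING TRACT, had 34.2, 34.3 and 33.9 FPKM, with a coefficient of variation (CV) of 0.509%, the smallest of the 13 genes. The ovule and carpel MADS gene AGL11 (Cucumis_sativus_newGene_630) averaged 50.2 ± 6.73 FPKM. The corepressors LEUNIG_HOMOLOG (Csa3G131970), LEUNIG (Csa2G379340) and the 2 SEUSS genes (Csa6G343700 and Csa6G397700), which act with floral factors, averaged 50.8, 41.6, 33.2 and 28.3 FPKM. A gene named AGAMOUS (Csa6G520410) averaged 55.2 ± 3.81 FPKM, but its only annotated Pfam domain is a protein kinase domain, and the other gene of that name, Csa1G467100, which has the MADS domain, averaged 2.73 ± 0.553 FPKM. Several relatives were at the floor. The second SPATULA gene (Csa6G491000) had 9, 4 and 7 counts, HEC2 (Csa4G639900) had 2, 0 and 0 counts, and the 2 HEC1 genes had no count in any library. Thus HEC3 was the only HECATE-named gene above 1 FPKM.

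The pollen, seed, xylem and phloem marker lists each held a smaller share of summed FPKM than the carpel and style regulators, at 0.181%. They were also shorter, at 37, 35, 22 and 16 genes against 49, and a summed share depends on the length of the list. The photosynthesis list held a larger share. Of 37 pollen and anther markers, 8 were expressed (21.6%, against 63.4% of all genes), and together the markers held 0.0137% of summed FPKM, from 0.0134% to 0.0140% over the libraries. The polcalcins and MALE STERILITY 1, defining genes of pollen and tapetum, had no count, whereas POLLEN DEFECTIVE IN GUIDANCE 1 (Csa7G219260) had 31.7, 29.96 and 32.2 FPKM. Pollen receptor-like kinases 4 and 5 (Csa4G385800 and Csa4G386300) were unequal between libraries, at 0.453, 4.10 and 3.16 FPKM and at 0.417, 2.72 and 1.24 FPKM. Both were lowest in replicate 1 and highest in replicate 2. Where Swiss-Prot gave no name, the non-redundant protein name added a major pollen allergen Ole e 6 gene (Csa5G222980) at a mean of 44.0 FPKM, and with such names the pollen share was 0.0251%.

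Seed storage genes were partly expressed. Of 35 ovule and seed markers, 15 were expressed (42.9%), with 0.0638% to 0.0710% of summed FPKM, led by the 13S globulin Csa3G218170 at 188.6, 184.5 and 174.7 FPKM and the 11S globulin Csa7G281380 at 92.7, 90.3 and 86.9 FPKM. The 2S albumin genes, also storage proteins of the mature seed, had no count. Of 22 xylem markers 6 were expressed (27.3%), and of 16 phloem markers 9 were (56.25%), with shares of 0.0147% to 0.0168% and of 0.0217% to 0.0271% over the libraries. Both vascular shares were highest in replicate 1. With non-redundant names added, the phloem share was 0.0481%, and the genes added include another PHLOEM PROTEIN 2-LIKE A9 gene (Csa6G538620) at a mean of 123.3 FPKM. Of 61 photosynthesis genes 55 were expressed (90.2%, against 63.4% of all genes), at 0.472% ± 0.0284 of summed FPKM. Their share was 0.5%, 0.473% and 0.443% in replicates 1 to 3, and a chlorophyll a-b binding protein (Csa6G139750) led them at 501, 410.9 and 401 FPKM. Whether green tissue or neighbouring organs entered the libraries unequally was not tested.

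The single most abundant gene was CsaUNG012530, which has no Swiss-Prot name and is named thionin-like protein 2 in the non-redundant database. Thionins are small cysteine-rich peptides known for antimicrobial activity. It had 6114, 10223 and 8160 FPKM, a mean of 8166 ± 2055. It was first in every library, and its lowest library lay above every library of the next gene, but it was also among the less even of the top genes, with a CV of 25.2%. Its mean was 2.22 times that of the second gene and 721 times the median of expressed genes. A second gene of the same name, Csa7G446640, had 20.5, 22.7 and 22.8 FPKM.

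**Figure D2:**
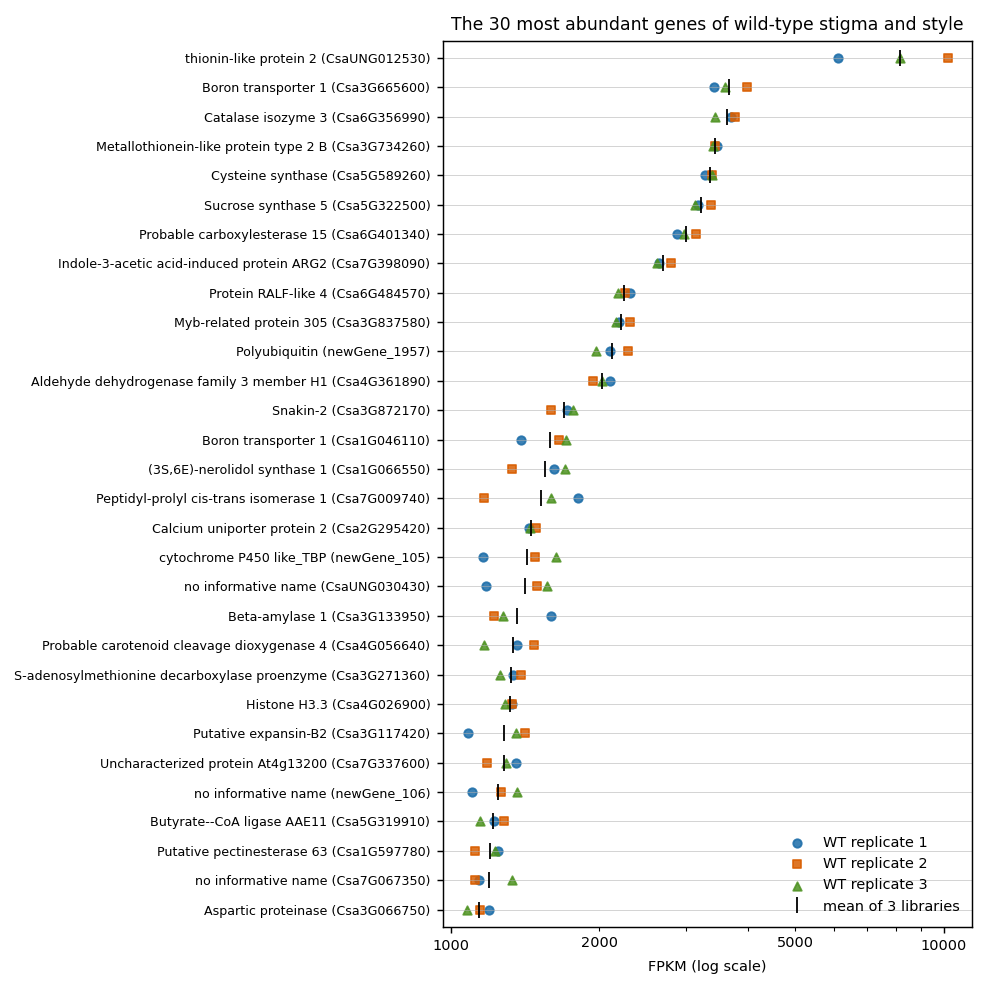
FPKM (log scale) of the 30 genes of highest mean FPKM in each of 3 WT libraries (coloured points) with their mean (black bar), and the gene name and identifier at the left. The thionin-like gene stands alone at 6114 to 10223 FPKM, and below it most neighbours overlap.

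Transporters of borate came next. Csa3G665600, named Boron transporter 1 after the Arabidopsis exporter that loads boron for long-distance supply, had 3415, 3993 and 3605 FPKM. By CPM, which is not divided by length, it was the first of all genes. A second Boron transporter 1 gene, Csa1G046110, had 1390, 1658 and 1708 FPKM and held rank 5 by CPM. Of the other family members, Boron transporter 4 (Csa3G536670), had 12.5, 14.7 and 11.3 FPKM, and Csa2G379980 had 0.111, 0.0970 and 0.0947 FPKM. The 4 genes of this transporter family held 0.958% of summed FPKM, and the 2 named Boron transporter 1 were far above the others.

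Other genes of the highest ranks encode enzymes of redox reactions and of cysteine synthesis and a metal-binding protein. Catalase isozyme 3 (Csa6G356990), which breaks down hydrogen peroxide, had 3709, 3767 and 3431 FPKM. The type 2 B metallothionein (Csa3G734260), a cysteine-rich metal-binding protein, had 3462, 3427 and 3399 FPKM, and cysteine synthase (Csa5G589260) had 3280, 3394 and 3384 FPKM. Both were among the most even genes of the top 30, with CVs of 0.913% and 1.88%. Aldehyde dehydrogenase 3H1 (Csa4G361890), which oxidises reactive aldehydes, followed with 2104, 1946 and 2027 FPKM.

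Sugar and starch enzymes were also high. Sucrose synthase 5 (Csa5G322500), which splits sucrose into fructose and UDP-glucose, had 3166, 3375 and 3128 FPKM and was second of all genes by CPM. Beta-amylase 1 (Csa3G133950), a starch-degrading enzyme of the plastid, had 1598, 1221 and 1272 FPKM and stood apart as high in replicate 1. Among peptides and small proteins, RALF-like 4 (Csa6G484570), a secreted signalling peptide, had 2307, 2253 and 2178 FPKM, and Snakin-2 (Csa3G872170), an antimicrobial peptide first named in potato, had 1723, 1595 and 1767 FPKM. The auxin-induced protein ARG2 (Csa7G398090), which carries a late embryogenesis abundant domain, had 2642, 2801 and 2622 FPKM. These 3 genes were even, with CVs of 2.88%, 5.24% and 3.65%.

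Further genes of the top 30 belong to volatile, carotenoid, polyamine and wall metabolism. (3S,6E)-nerolidol synthase 1 (Csa1G066550), which makes a scent sesquiterpene, had 1617, 1331 and 1702 FPKM. Carotenoid cleavage dioxygenase 4 (Csa4G056640) had 1360, 1476 and 1168 FPKM, and S-adenosylmethionine decarboxylase (Csa3G271360), which commits S-adenosylmethionine to polyamines, had 1335, 1386 and 1258 FPKM. In the last 2, replicate 3 was the lowest. Putative expansin-B2 (Csa3G117420), a wall-loosening protein, had 1081, 1413 and 1352 FPKM, and pectinesterase 63 (Csa1G597780), which removes methyl groups from pectin, had 1245, 1120 and 1225 FPKM. Probable carboxylesterase 15 (Csa6G401340), polyubiquitin (Cucumis_sativus_newGene_1957), the mitochondrial calcium uniporter 2 (Csa2G295420), the acyl-activating enzyme AAE11 (Csa5G319910) and an aspartic proteinase (Csa3G066750) averaged 2996, 2122, 1456, 1217 and 1138 FPKM.

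The order among these genes was only partly resolved. Of 30 neighbouring pairs in the ranking, 5 had ranges that did not overlap, and 9 kept the same order in every library. The breaks came after the first gene, after the metallothionein, after carboxylesterase 15, after ARG2 and after aldehyde dehydrogenase 3H1. Within the top 30, 12 genes had a CV under 5% and 2 had a CV over 20%. The latter were the thionin-like gene and peptidyl-prolyl isomerase 1 (Csa7G009740), a cyclophilin that assists protein folding, at 1814, 1166 and 1592 FPKM.

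The ranking depended on the length of the gene models. The length implied by counts and FPKM had a median of 1660 bases over expressed genes. It was under 500 bases in 1176 of the 15423 expressed genes and in 4 of the top 30. These 4 were CsaUNG012530 at 373, Myb-related protein 305 (Csa3G837580) at 229, CsaUNG030430 at 219 and histone H3.3 (Csa4G026900) at 416. FPKM divides by this length. By CPM these genes ranked 13, 245, 537 and 214, and 20 of the top 30 by FPKM were also in the top 30 by CPM. CsaUNG030430 and 2 new gene models had the same order of libraries. Cucumis_sativus_newGene_105 had 1162, 1481 and 1634 FPKM, CsaUNG030430 had 1179, 1493 and 1564 FPKM, and Cucumis_sativus_newGene_106 had 1104, 1265 and 1359 FPKM. All 3 were lowest in replicate 1 and highest in replicate 3. They have neither a Swiss-Prot name nor a Pfam domain. The non-redundant name is cytochrome P450 like_TBP for Cucumis_sativus_newGene_105 and that of a hypothetical protein for the other two.

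Genes were next grouped by function from their Swiss-Prot names into 35 lists. In 5 lists the members together held at least 1% of summed FPKM. Antioxidant and redox proteins held 2.30% ± 0.0511, ubiquitin and the proteasome 1.76% ± 0.0206, cytosolic ribosomal proteins 1.69% ± 0.0251, sugar transport and sucrose enzymes 1.16% ± 0.0176 and auxin genes 1.15% ± 0.0503. By CPM the membership of this group changed: ribosomal proteins held 0.994%, heat shock proteins 1.18% and pectin enzymes 1.02%. The lists differed in how many genes carried the share. The largest member made up 2.77% of the ribosomal total, where 191 of 207 genes were expressed (92.3%, against 63.4% of all genes). By contrast, sucrose synthase 5 made up 50.7% of the sugar total and ARG2 made up 42.4% of the auxin total.

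**Figure D3:**
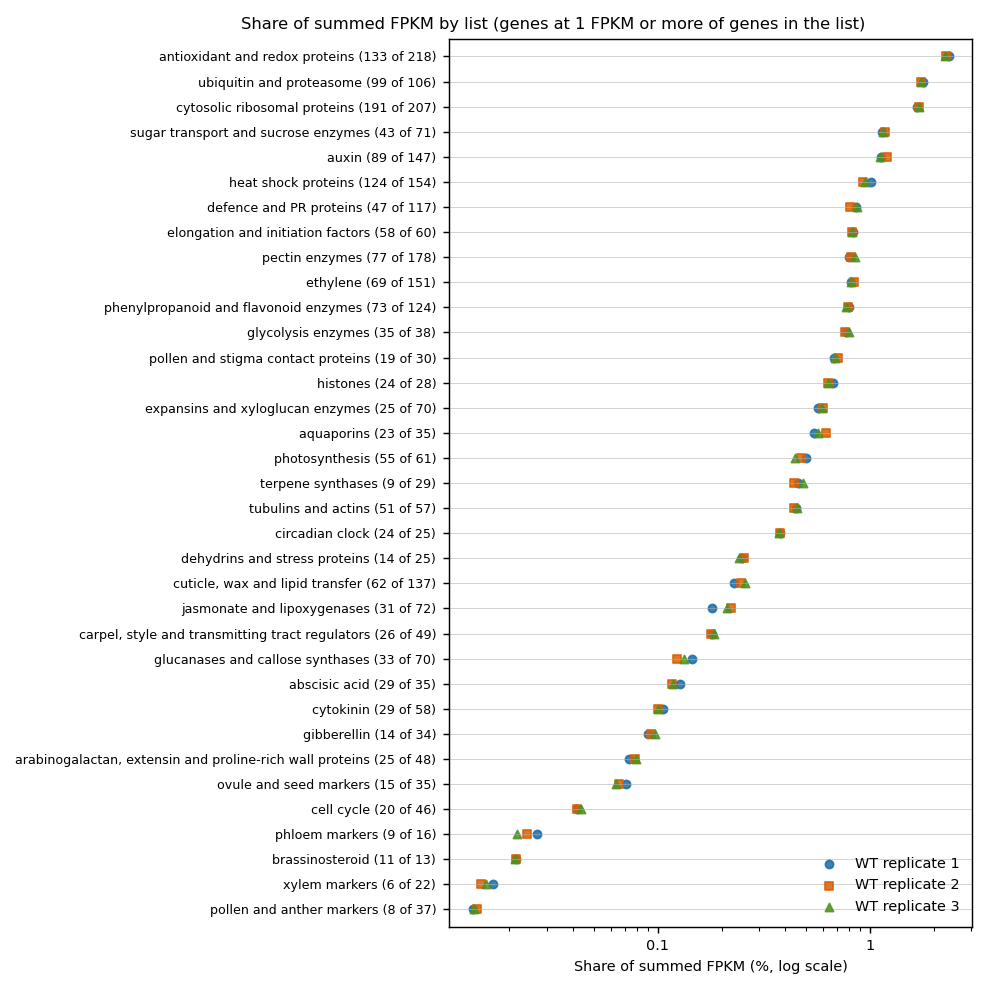
Share of summed FPKM (percent, log scale) of each of 35 lists of genes in each WT library, with the number of members at 1 FPKM or more of the members in brackets. The shares run from about 0.0137% for pollen and anther markers to 2.30% for antioxidant and redox proteins, and the 3 libraries lie close together in nearly every list.

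Proteins known to take part in contact with pollen were carried by secreted peptides and one copper protein. Of 30 genes in this list, 19 were expressed (63.3%, the same as over all genes), with 0.691% ± 0.0146 of summed FPKM. RALF-like 4 (Csa6G484570), named RALF-like 19 in the non-redundant database, alone made up 59.0% of it. Which cells its RNA came from was not tested. A second RALF-like 4 gene (Csa6G199790) had 424.5, 440.2 and 405.8 FPKM, and the basic blue protein (Csa3G215590), a plantacyanin of the kind found in Arabidopsis transmitting tract, had 585.5, 847.4 and 775.2 FPKM and was low in replicate 1. The receptor kinase FERONIA, through which some RALF peptides signal in Arabidopsis, was far lower. Whether it receives the RALF-like 4 peptides was not tested. The FERONIA genes Csa4G334690 and Csa5G640540 had 75.4, 75.0 and 70.5 FPKM and 13.6, 15.8 and 12.1 FPKM. Their relative HERK 1 (Csa6G302130) averaged 24.1 FPKM. EXO70A1, an exocyst subunit that acts in the stigma of Brassica and Arabidopsis, was the name of 3 genes with means of 45.4, 18.6 and 16.5 FPKM. By CPM the share of this list was 0.330%.

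Wall enzymes were led by a few members of large families. The largest member made up 26.4% of the pectin total and 39.5% of the expansin and xyloglucan total. Of 178 pectin enzymes 77 were expressed, and 7 exceeded 100 FPKM, with pectate lyase 22 (Csa1G049960), which cuts pectin, at 857.4, 1082 and 1133 FPKM and a polygalacturonase (Csa3G121720) at 415.5, 389.6 and 389.3 FPKM. The lyase was lowest in replicate 1 and the polygalacturonase was highest there. Of 70 expansins and xyloglucan enzymes 25 were expressed, and after expansin-B2 came expansin-A11 (Csa2G346000) at 450.0, 493.1 and 435.9 FPKM. The xyloglucan endotransglucosylase/hydrolase Csa3G900960, which cuts and rejoins xyloglucan, averaged 442.3 ± 12.6 FPKM. The expressed share was 43.3% in the pectin list and 35.7% in the expansin list, against 63.4% of all genes.

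Arabinogalactan, extensin and proline-rich proteins, glycoproteins known from the transmitting tract matrix of other plants, held 0.0764% by Swiss-Prot name, led by fasciclin-like arabinogalactan protein 1 (Csa7G108300) at 103.9, 124.5 and 120.9 FPKM. With the non-redundant name used where Swiss-Prot gave none, the share was 0.336%. The genes added in this way include Csa1G277980, a glycine-rich cell wall structural protein and so by name of another class. It had 571.8, 482.4 and 607.7 FPKM. Arabinogalactan protein 13 (Csa1G599540) was also added, at a mean of 211.4 FPKM. The share of 0.336% thus covers more than the classes named. The glucanase Csa3G073920, of a family that degrades callose, had 265.6, 164.1 and 220.2 FPKM and was lowest in replicate 2. Callose synthase 9 (Csa1G605100) averaged 42.8 ± 0.785 FPKM.

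Terpene synthases, which make volatile terpenes from prenyl diphosphates, were uneven among themselves. Of 29 genes 9 were expressed, a smaller share than the 63.4% of all genes, and 3 exceeded 100 FPKM. A further 15 of the 29 had no count, against 3420 of all 24345 genes. Beside nerolidol synthase 1, alpha-farnesene synthase (Csa3G095040) had 653.6, 671.5 and 681.5 FPKM and (-)-germacrene D synthase (Csa3G040850) had 191.3, 389.4 and 212.1 FPKM. Farnesene synthase was even, and germacrene D synthase was high in replicate 2. The enzyme at the head of the cytosolic pathway that supplies sesquiterpenes, 3-hydroxy-3-methylglutaryl-coenzyme A reductase 1 (Csa7G029390), had 557.0, 703.2 and 483.4 FPKM, also highest in replicate 2.

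Sugar transporters of the SWEET family followed sucrose synthase in the sugar list. Of its 71 genes 43 were expressed (60.6%, against 63.4% of all genes). SWEET16 (Csa1G569280), a bidirectional sugar transporter by its name, which comes from the rice protein, had 872.7, 885.4 and 858.3 FPKM. SWEET10 (Csa1G001300) had 635.7, 722.2 and 674.1 FPKM, and SWEET12 (Csa1G001290) had 301.4, 297.5 and 331.2 FPKM. Their libraries differed by little, with CVs of 1.56%, 6.40% and 5.95%. Water channels were expressed in 23 of 35 genes (65.7%, near the share of all genes). The vacuolar TIP1-1 (Csa6G448110) had 1164, 1087 and 1144 FPKM and the plasma membrane PIP1-4 (Csa5G198770) had 661.7, 736.2 and 742.2 FPKM. By contrast, PIP2-1 (Csa6G445130) had 276.8, 503.3 and 363.6 FPKM, and the genes with neighbouring identifiers, PIP2-2 (Csa6G445140) and a second PIP2-1 (Csa6G445120), had 204.7, 307.6 and 226.7 FPKM and 106.7, 160.2 and 128.4 FPKM. All 3 were highest in replicate 2 and lowest in replicate 1.

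Defence proteins held 0.844% of summed FPKM by Swiss-Prot name, with 47 of 117 genes expressed (40.2%, against 63.4% of all genes). Of summed FPKM they held 2.37% with the non-redundant name used for every gene that Swiss-Prot left unnamed, the thionin-like gene among them. After Snakin-2, MLP-like protein 43 (Csa3G172370), of the Bet v 1 family, had 1259, 1018 and 1134 FPKM, and a thaumatin-like protein (Csa2G361370) had 427.0, 567.5 and 455.2 FPKM. The replicate that was highest differed between these 3 genes. Of 137 cuticle, wax and lipid transfer genes 62 were expressed (45.3%). Non-specific lipid-transfer protein 1 (Csa3G728130) had 285.0, 354.8 and 484.1 FPKM. CER1 (Csa3G127760), which makes wax alkanes, had 138.6, 159.3 and 105.3 FPKM. Phenylpropanoid enzymes, 73 of 124 expressed (58.9%), were led by caffeoylshikimate esterase (Csa4G001810), of lignin precursor synthesis, at 848.7, 905.2 and 938.1 FPKM.

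Among hormone lists, auxin and ethylene held the largest shares. They were also the longest, at 147 and 151 genes, where the other hormone lists had 13 to 72. Of their members 60.5% and 45.7% were expressed, against 63.4% of all genes. The ethylene list also takes in ethylene-responsive transcription factors by name. Ethylene genes held 0.822% ± 0.0181, and its 2 highest members were forms of 1-aminocyclopropane-1-carboxylate oxidase, the enzyme that releases ethylene. ACC oxidase 5 (Csa4G361270) had 1067, 1159 and 1054 FPKM and ACC oxidase 4 (Csa6G160180) had 896.4, 818.2 and 807.3 FPKM. The jasmonate and lipoxygenase list held 0.179%, 0.221% and 0.212% and was lowest in replicate 1. Its highest members, the jasmonate signalling repressors TIFY 10B (Csa7G448810) and TIFY 6B (Csa5G628650), had 157.7, 250.9 and 234.1 FPKM and 153.3, 212.8 and 197.8 FPKM. Both repressors shared that order, while JAR6 (Csa3G119760), which conjugates jasmonate to isoleucine, was even at 91.4, 89.5 and 91.1 FPKM.

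Abscisic acid, cytokinin, gibberellin and brassinosteroid genes held 0.121%, 0.102%, 0.0934% and 0.0214%. With non-redundant names added, the brassinosteroid share was 0.0686%, and the genes added include DET2 (Csa5G612890), a steroid reductase of brassinosteroid synthesis, at a mean of 259.9 FPKM. The DELLA repressor GAIP-B (Csa5G569350) made up 44.9% of the gibberellin total, at 199.8, 249.9 and 241.9 FPKM, while the receptor GID1B (Csa7G391240) averaged 73.3 ± 7.85 FPKM. The cytokinin receptors histidine kinase 3 (Csa6G095330) and 4 (Csa5G256680) averaged 96.7 and 76.3 FPKM. The brassinosteroid receptor BRI1 (Csa6G486870) averaged 23.2 FPKM, below its coreceptor BAK1 (Csa4G106870) at 56.1 FPKM.

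Of 25 clock genes 24 were expressed (96.0%, against 63.4% of all genes). Their share of summed FPKM was even between libraries, at 0.378%, 0.376% and 0.374%. The morning gene LHY (Csa6G095910) had 590.0, 548.1 and 579.3 FPKM and REVEILLE 8 (Csa3G736740) had 249.8, 290.9 and 241.6 FPKM. The evening genes GIGANTEA (Csa6G055360) and EARLY FLOWERING 4 (Csa5G202370) had 161.8, 167.6 and 169.6 FPKM and 127.6, 130.9 and 136.4 FPKM. The ranges of LHY and GIGANTEA did not overlap. Of 46 cell cycle genes 20 were expressed (43.5%, against 63.4% of all genes), with 2 at 10 FPKM or more. The higher of these, Csa5G643970, is named Cyclin-B1-2 at 147.3 ± 7.91 FPKM, but its annotated Pfam domain is a proteasome maturation factor. The other, Cyclin-D2-1 (Csa2G370350), averaged 11.1 FPKM.

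Transcription factors were expressed in a somewhat smaller share than all genes. Swiss-Prot names assigned 1207 genes to 15 families. Of these, 678 were expressed (56.2%, against 63.4% of all genes), 382 reached 10 FPKM, 47 reached 100 FPKM and 199 had no count. Over all 24345 genes these numbers were 15423, 8213, 1005 and 3420. The factors held 4.76% of summed FPKM, and 5 were among the 100 most abundant genes. MYB genes had the largest family total, 5016, 5078 and 4936 FPKM in replicates 1 to 3, and the bHLH family followed at 2397, 2664 and 2526 FPKM. Much of the MYB total came from Myb-related protein 305 (Csa3G837580), at 2188, 2309 and 2158 FPKM on a model with a short implied length. Expressed shares ran from 40.5% of 42 MADS genes and 42.8% of 138 AP2/ERF genes to 82.5% of 57 bZIP genes.

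**Figure D4:**
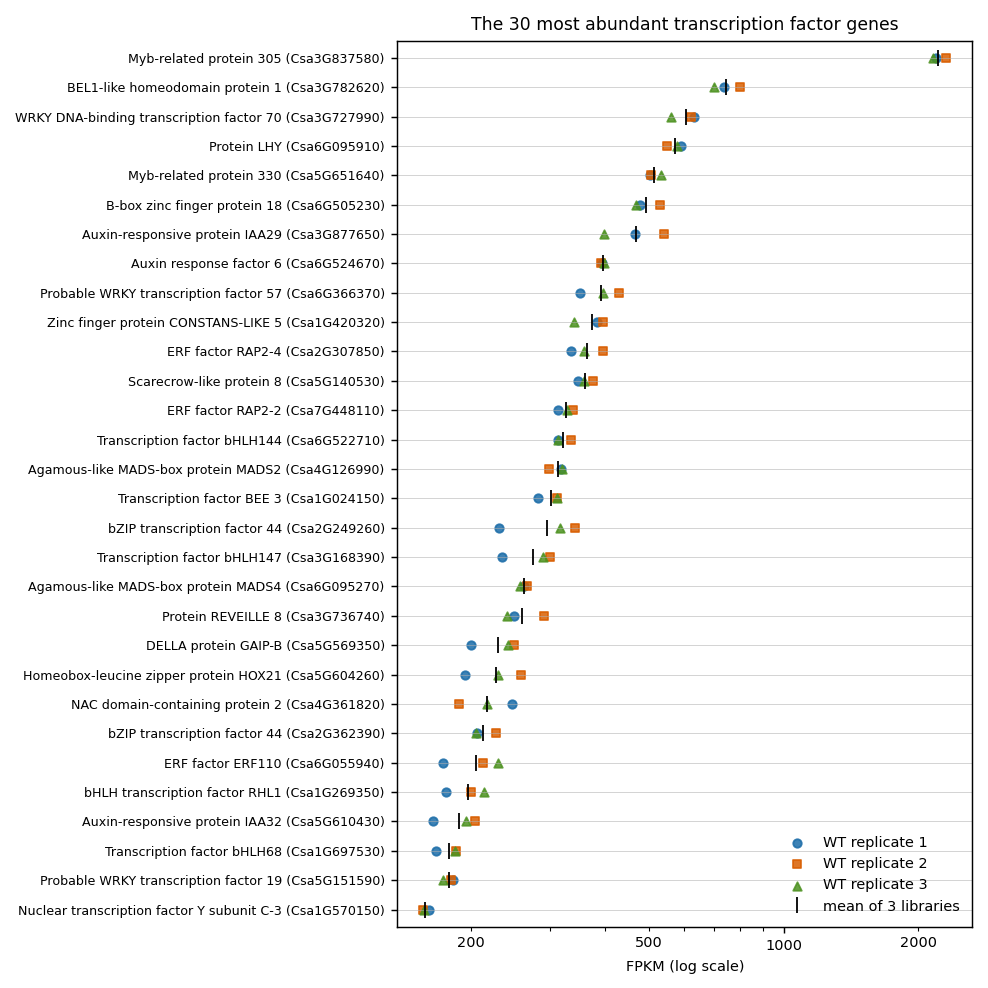
FPKM (log scale) of the 30 transcription factor genes of highest mean FPKM in each of 3 WT libraries (coloured points) with their mean (black bar); ERF factor stands for ethylene-responsive transcription factor. Myb-related protein 305 lies apart near 2218 FPKM, on a model with a short implied length, and the others run from 745 down to 158 FPKM.

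By FPKM the first factor was Myb-related protein 305 (Csa3G837580), named after a flower MYB gene of snapdragon, at 2188, 2309 and 2158 FPKM. This gene made up 8.47% of all factor FPKM. Its model had an implied length of 229 bases and no annotated Myb domain, so its rank depends on that length, and by CPM it was not among the first 5 factors. The first by CPM was BEL1-like homeodomain protein 1 (Csa3G782620), which had 736.2, 797.8 and 699.8 FPKM. BEL1-like proteins pair with KNOX homeodomain proteins in the control of organ pattern.

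WRKY70 (Csa3G727990), which in Arabidopsis acts in salicylic acid responses, had 631.8, 621.0 and 560.0 FPKM, and Myb-related protein 330 (Csa5G651640) had 503.6, 505.6 and 533.3 FPKM. B-box protein 18 (Csa6G505230) had 478.2, 529.1 and 468.9 FPKM. The order of WRKY70 and LHY was not the same in all libraries. Among auxin factors, IAA29 (Csa3G877650), a repressor, had 465.1, 541.8 and 396.3 FPKM. ARF6 (Csa6G524670), which promotes flower maturation and style growth in Arabidopsis, had 393.7, 391.3 and 396.8 FPKM and was second among factors by CPM. The repressor varied between libraries with a CV of 15.6% and the activator with a CV of 0.709%.

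Other family leaders were RAP2-4 (Csa2G307850) of the AP2/ERF family at 363.4 ± 30.4 FPKM, SCL8 (Csa5G140530) of the GRAS family at 360.4 ± 13.3 FPKM and bHLH144 (Csa6G522710) at 320.7 ± 12.2 FPKM. MADS2 (Csa4G126990) led the MADS family at 318.6, 298.9 and 320.4 FPKM and MADS4 (Csa6G095270) followed at 263.4, 267.1 and 257.6 FPKM. Both models carry the K-box, the dimerization region of floral MADS proteins, as their Pfam domain. The leaders of the bZIP, NAC, NF-Y, SBP, C2H2 and Dof groups were bZIP44 (Csa2G249260), NAC domain-containing protein 2 (Csa4G361820), NF-YC3 (Csa1G570150), SPL12 (Csa3G664550), ZAT5 (Csa6G148300) and cyclic dof factor 3 (Csa1G033250), with means of 296.0, 217.4, 158.4, 123.1, 122.5 and 109.4 FPKM. Within the 30 most abundant factors, 21 had a CV under 10%, and 5 of 30 neighbouring pairs had ranges that did not overlap. For 6 of the 30 no Pfam domain is given, so their family rests on the Swiss-Prot name.

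The spread between libraries fell with level up to about 100 FPKM and not beyond. The median CV of expressed genes was 9.17%. It was 16.4% between 1 and 5 FPKM, where Poisson counting alone gave 9.09%, and 5.99% between 100 and 1000 FPKM, where counting gave 1.02%. Between 20 and 100 FPKM it was 6.23%, against 2.09% from counting, and in the 38 genes above 1000 FPKM it was 6.31%, against 0.361%. Libraries correlated across genes with Pearson's r of 0.993 to 0.995 on log2(FPKM + 1) and Spearman's rho of 0.986 to 0.988. Genes are not independent replicates, so these values describe the libraries only. Counts of each pair differed by more than sampling noise, with chi-square per degree of freedom of 14.9 to 26.7, so no libraries were merged.

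**Figure D5:**
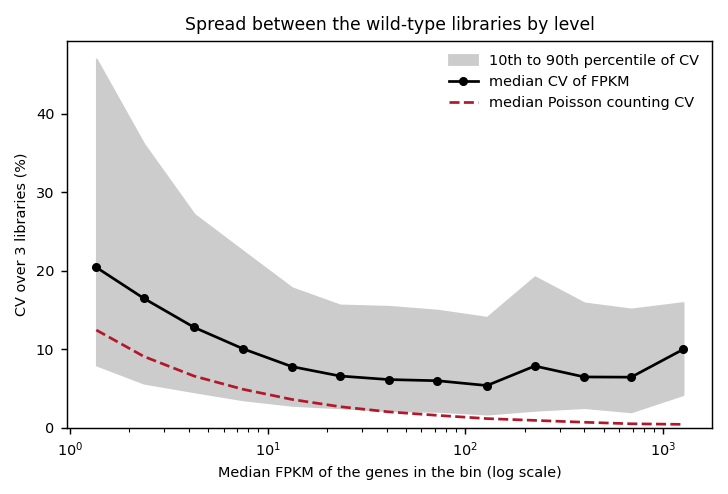
CV over 3 WT libraries (percent) against the median FPKM of genes in bins of level (log scale), for bins with at least 20 genes. The black line is the median, the grey band the 10th to 90th percentile and the red dashed line the median Poisson counting error, which the median CV exceeds in every bin. The median CV is lowest, 5.36%, in the bin that starts at 100 FPKM, and lies between 6.43% and 9.97% in the 4 bins above it.

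Some genes varied far more than others of their level. Of the 8213 genes of at least 10 FPKM, 142 had a CV over 30%. The library farthest from the mean was replicate 2 for 76 of them, replicate 1 for 57 and replicate 3 for 9. The magnesium transporter NIPA6 (Csa7G009750) had 25, 104.6 and 27 FPKM, the largest CV (86.9%) among named genes of at least 50 FPKM. The gene of the preceding identifier, peptidyl-prolyl isomerase 1 (Csa7G009740), was lowest in replicate 2, where NIPA6 was highest. A purine permease (Csa1G445360) had 113.8, 52.7 and 50.04 FPKM, and ammonium transporter 1 member 2 (Csa2G079100) had 99.8, 31.7 and 81.6 FPKM. The permease was high in replicate 1 and the ammonium transporter low in replicate 2.

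The plastid genes Reactive Intermediate Deaminase A (Csa3G076580) and NAD(P)H-quinone oxidoreductase subunit L (Csa5G569340) had 124.3, 272.0 and 333.9 FPKM and 41.2, 113.8 and 80.0 FPKM. Both were lowest in replicate 1. CASP-like protein 2C1 (Csa2G048830) was low in replicate 2, at 288.1, 124.0 and 320.4 FPKM. The lactoylglutathione lyase GLX1 (Csa6G513680), which detoxifies methylglyoxal, was high in replicate 2, at 38.2, 84.4 and 48.6 FPKM. The other genes among the 10 most variable, receptor-like protein 9DC1 (Csa6G080320) and the kinase PERK14 (Csa2G270770), had CVs of 42.7% and 42.4%.

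Lists were also compared between the libraries. The median over members of at least 10 FPKM was set against the mean of the libraries on the log2(FPKM + 1) scale, for 30 lists with at least 5 such members. In 2 lists a library differed from the mean by at least 0.1, and with members of at least 1 FPKM this was so in 6 of 35 lists. Photosynthesis genes lay at 0.06, 0.08 and -0.12 in replicates 1, 2 and 3, and aquaporins at -0.11, 0.16 and -0.02. Over all genes of that level the medians were 0.00, 0.01 and -0.01. Thus photosynthesis genes were lowest in replicate 3, and aquaporins were highest in replicate 2.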

How the data were processed

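RNA-seq libraries were made from total RNA, per the labels' protocols, and HISAT2, HISAT and DESeq2 are named in the submitters' processing notes. For the versions, the genome build and the annotation, the sources used here give nothing. The deposited table gives whole-number read counts per gene for each library, with no normalization. Per the file headers, the authors also deposited FPKM, in which counts are scaled by gene length and by library size. Another 18 value columns belong to libraries not used here. Gene names are the deposited Swiss-Prot, non-redundant and Pfam annotation; no identifier matched the RefSeq table, so no position is given. Where names are shared or gene copies are near-identical, the counting may have split reads between them.

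Genes were ranked by mean FPKM over the 3 WT libraries. Library totals were 32244933 to 36079970 counts, and floors use 3 counts. CPM, implied length (counts divided by FPKM and library total), CV and Poisson error were computed with Python 3.11.15, pandas 2.3.3 and numpy 2.4.6, and TMM factors with edgeR 4.0.16 in R 4.3.3. The spread calculation was checked on simulated counts. Chi-square tests used genes with at least 10 counts in a pair.

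The members and lists were chosen with earlier results of these data known. List and family patterns were changed after the files were read, to remove false text matches and to add names they had missed, such as HEC1 to HEC3. Genes named are the 30 of highest mean FPKM, the 30 highest transcription factors and each family's leader, up to 4 members per list, carpel regulators of at least 10 FPKM, and the 10 largest CVs among informatively named genes of at least 50 FPKM. Other genes (further members of the clock, aquaporin, terpene and pollen contact lists, same-named and neighbouring genes, markers at 0, members found by non-redundant name and Csa7G029390) were chosen after their values were seen. Alternatives covered thresholds, units, annotation, new gene models and each library left out.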

Additional observations from a re-analysis of the deposited data

How the results depend on the processing

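Under CPM the 100 most abundant genes held 19.9% of the total, and without models of an implied length under 500 bases, an alternative chosen after seeing the data, they held 19.8%, against 20.8% of summed FPKM when the 100 genes were chosen by mean; the other alternatives, including each library left out, moved this by less than 1 SD. The median CV was 12.8% with no filter and 6.62% at 10 FPKM, against 9.17% at 1 FPKM, and 7.01% to 7.96% with each library left out, which leaves 2 libraries per value. Lists with a library median of at least 0.1 from the mean numbered 6 at 1 FPKM, against 2. The number of expressed genes, of expressed transcription factors, of shared top 30 genes and of lists at 1% or more stayed within 1.5 times under every alternative run. By CPM the share of 31 of 35 lists moved by more than 1 SD, and 5 moved by over 1.5 times: histones to 0.293%, cytosolic ribosomal proteins to 0.994%, defence proteins to 0.459%, pollen and stigma contact proteins to 0.330% and glucanases to 0.201%. The non-redundant names moved 5 lists by over 1.5 times, among them brassinosteroid genes to 0.0686% and phloem markers to 0.0481%. The causes were not tested. No paired analysis was possible because 1 group was analysed. With 3 libraries, spreads are imprecise, and low genes are limited by depth.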

Other observations

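By first annotated Pfam domain, protein kinases held the largest summed level, 1.99% of summed FPKM from 457 genes, of which 330 were expressed. Cytochrome P450 genes, which oxidise small molecules, held 0.978% from 212 genes, of which 97 were expressed. RNA recognition motif proteins held 0.829%, and 141 of their 151 genes were expressed. Over all genes 63.4% were expressed. The single gene with a metallothionein domain held 0.623%.

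The gene next in identifier to S-adenosylmethionine decarboxylase, Csa3G271350, is annotated with the leader peptide domain of that enzyme and had 1086, 1019 and 960 FPKM, rank 37 by FPKM, on a model with an implied length of 323 bases. In many plants a short upstream reading frame of this transcript represses its translation. The pair Csa1G126040, with no domain, and Csa1G126050, named ubiquitin-like protein 5, also have consecutive identifiers and had means of 570.8 and 550.4 FPKM, with implied lengths of 253 and 257 bases.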
